A study of Mus musculus with 4 samples.

Results

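Oocyte-rich spots were the places on the ovary sections where transcripts made by oocytes took the largest share of the captured RNA. Every spot with at least 1000 UMIs (unique molecular identifiers, 1 for each captured RNA molecule) was given a score, the summed UMIs of Zp1, Zp2, Zp3, Gdf9, Bmp15, Ooep, Padi6, Khdc3, Zar1, Nlrp14, Dppa3 and H1foo per 10000 UMIs of the spot. The top 5% by score, ranked over all sections together, were 207 of 4134 spots. The other 3927 spots are called the rest of the section. A spot is a small region that can hold several cells or parts of them, so that an oocyte-rich spot is not an oocyte.

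The series profiled ovaries of outbred CD-1 female mice, aged naturally and given no treatment or transgene, with the Visium spatial assay, in which polyadenylated RNA of a frozen section binds to barcoded spots of an array. The aged females were 15 to 16 months old and the young females 3 to 4 months old. There were 4 animals of each age, with 1 section from each, and each of 4 capture areas carried 1 aged and 1 young section. Sections are named here by age and capture area (aged 1 to 4, young 1 to 4), and the study compares ovarian tissue of the ages.

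The growing oocyte stores the mRNAs and proteins that the early embryo uses before it transcribes its own genome. It secretes the glycoproteins of the zona pellucida, the coat that sperm bind, and the growth factors GDF9 and BMP15, which act on the granulosa cells around it. Granulosa cells divide, make inhibin and anti-Müllerian hormone, and pass metabolites to the oocyte through gap junctions, while oocytes are lost as the ovary ages.

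Total UMIs per section ran from 2777948 to 21619232. Ages were assigned to sections from the sides that the labels name. In area 3 the order of the ages by oocyte-rich spots ran against the other areas: aged section 3 held 57 of them and young section 3 held 2. If the image of that area was turned against its labels, the 2 ages are exchanged there, and the files do not tell these cases apart. The share of oocyte-rich spots and the numbers of genes called are therefore also given without area 3 or its aged section, where that is possible. Single genes and most lists are given with aged section 3 included. Among the capture areas 1358 of 2204 barcodes recurred, as they must, since a barcode marks an array position in this assay.

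The markers of oocytes were all far higher in the spots chosen. Zp3, which encodes the zona protein that is the first contact of sperm, was at 196, 625, 399 and 761 CPM (UMIs per 1000000 UMIs of the spot class) in oocyte-rich spots of aged section 3 and young sections 1, 2 and 4, against 18.2, 26.8, 12.8 and 16.3 CPM in the rest of these sections. Gdf9 was at 334, 352, 348 and 260.1 CPM, against 27.4, 18.5, 7.03 and 5.22 CPM. Ooep, of the subcortical maternal complex, was at 504, 827, 569 and 683 CPM, against 37.8, 45.2, 19.7 and 14.8 CPM. These genes chose the spots, so the differences are a description and carry no test. The same holds for Padi6, which forms the oocyte's cytoplasmic lattices and was at 166, 694, 472 and 685 CPM against 13.5, 28.0, 13.6 and 15.1 CPM, and for Zar1, which binds stored maternal mRNA, at 157, 326, 296 and 260.1 CPM against 20.4, 16.6, 7.47 and 7.17 CPM.

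The promoters of Zp3, Padi6 and H1foo are printed because these members made up different shares of the score in different sections. FIGLA, an oocyte transcription factor that is described below, activates zona pellucida genes through E-boxes. The sequences are from RefSeq (GRCm38.p6), run 5′ to 3′ on the strand of the gene from 250 bases before to 50 bases after its start, and have E-boxes (CANNTG, which reads the same on both strands, overlaps counted) in capitals.
Zp3, chr5:135979855-135980154, plus strand: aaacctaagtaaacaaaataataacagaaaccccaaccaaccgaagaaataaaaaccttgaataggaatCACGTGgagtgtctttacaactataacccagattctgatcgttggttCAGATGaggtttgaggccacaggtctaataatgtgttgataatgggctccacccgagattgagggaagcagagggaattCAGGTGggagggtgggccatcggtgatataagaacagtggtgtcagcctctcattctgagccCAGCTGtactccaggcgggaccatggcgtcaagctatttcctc
Padi6, chr4:140742594-140742893, minus strand: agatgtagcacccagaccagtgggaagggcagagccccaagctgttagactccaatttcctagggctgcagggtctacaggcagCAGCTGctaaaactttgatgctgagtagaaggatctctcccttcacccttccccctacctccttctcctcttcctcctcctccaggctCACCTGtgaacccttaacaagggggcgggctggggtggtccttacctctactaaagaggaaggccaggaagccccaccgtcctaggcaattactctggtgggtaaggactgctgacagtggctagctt
H1foo, chr6:115944681-115944980, plus strand: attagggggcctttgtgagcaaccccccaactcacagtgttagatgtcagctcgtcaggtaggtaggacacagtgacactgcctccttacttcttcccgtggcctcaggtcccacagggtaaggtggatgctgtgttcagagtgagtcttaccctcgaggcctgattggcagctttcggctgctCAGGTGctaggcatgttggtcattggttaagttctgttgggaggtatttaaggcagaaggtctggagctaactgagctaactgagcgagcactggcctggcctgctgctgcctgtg
The Zp3 promoter held 4 E-boxes, the Padi6 promoter 2 and the H1foo promoter 1. Of all 32851 promoters of the table, 72.3% held at least 1, 39.6% at least 2 and 6.49% at least 4. A promoter was found for 7 of the 12 score genes (Zp3, Padi6, H1foo, Khdc3, Ooep, Zar1 and Bmp15), and all 7 held at least 1 E-box. Those not printed held 5 (Khdc3), 2 (Zar1), 1 (Ooep) and 1 (Bmp15). Whether E-boxes bear on the shares of the score was not tested. A match is a run of letters and not a bound site.

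The score of the oocyte-rich spots ran from 10.5 to 358 with a median of 20.8, and 1796 of the rest had no UMI of any of the 12 genes. The 3 lowest members scored 10.4673, 10.4682 and 10.5025, and the 3 highest spots outside scored 10.4671, 10.4566 and 10.4439, so that the threshold cuts a continuous range. Of the 207 members, 99 scored under 20, 71 from 20 to under 50 and 37 scored 50 or more. They lay together: 46.2% of the array neighbours of members were members, against 2.76% of the neighbours of the other spots. They formed 54 connected groups, of which 28 were single spots and 14 had at least 5 spots. The largest group, in aged section 3, held 46 of that section's 57 members, whereas the largest groups of young sections 1, 2 and 4 held 16, 5 and 11 spots. Outside the groups the summed score fell with distance, to 5.48, 4.39, 3.31 and 4.33 per 10000 UMIs at 1 array step from a member in aged section 3 and young sections 1, 2 and 4, and to 1.33, 1.32, 0.572 and 0.546 at 3 or more steps.

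**Figure D1:**
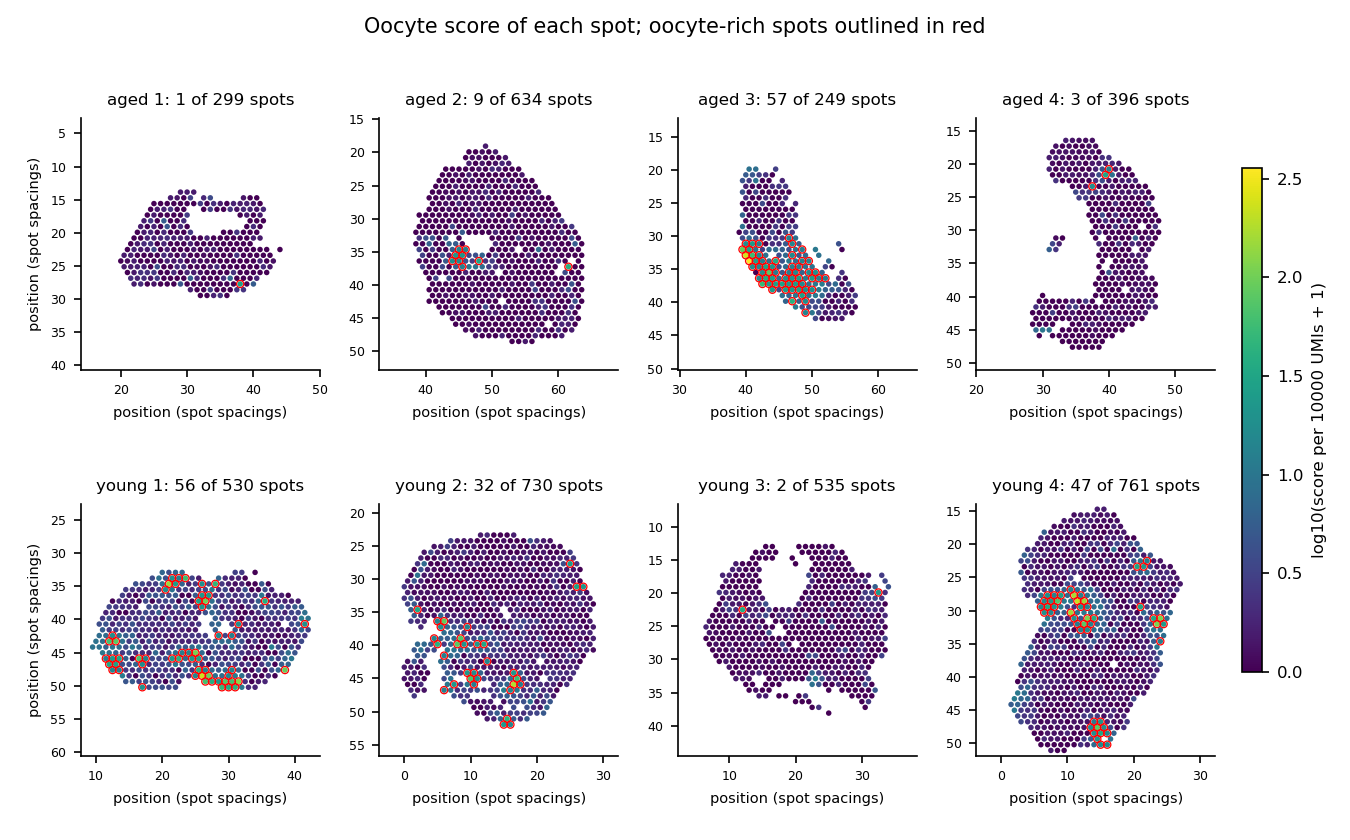
Oocyte score of every spot with at least 1000 UMIs in the 4 aged sections (upper row) and the 4 young sections (lower row), with both axes in spot spacings and colour as log10 of the score per 10000 UMIs plus 1. Red outlines mark the 207 oocyte-rich spots, of which 46 form a single patch in aged section 3, while the members of young sections 1, 2 and 4 lie in many small groups.

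The share of oocyte-rich spots overlapped between the ages. Aged sections 1 to 4 held 1, 9, 57 and 3 of them, which was 0.334, 1.42, 22.9 and 0.758% of their spots, and young sections 1 to 4 held 56, 32, 2 and 47, or 10.6, 4.38, 0.374 and 6.18%. Counting error alone gives exact 95% binomial intervals of 17.8 to 28.6% for aged section 3 and of 8.08 to 13.5% for young section 1. The share averaged 6.35 ± 11.04% in aged and 5.37 ± 4.23% in young sections (SD, n = 4 each), a difference of 0.976 percentage points (exact permutation test, two-sided, p = 0.943, the smallest possible p being 0.0286). The aged section was the lower of its capture area in 3 of 4 areas, aged minus young being −10.2, −2.96 and −5.42 percentage points in areas 1, 2 and 4 and 22.5 points in area 3. Without both sections of area 3 the shares were 0.837% in aged and 7.04% in young sections, with no overlap (exact permutation test, p = 0.1, the smallest that 3 sections against 3 allow). Without aged section 3 alone the difference was −4.54 points. Each animal gave 1 section, and a lower share of its spots can come from fewer oocytes in it, from less oocyte RNA per spot or from more other tissue. These cannot be told apart.

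The make-up of the score differed between sections. H1foo, which encodes the linker histone of the oocyte, gave 15.8% of the score UMIs in aged section 3, against 6.81, 7.47 and 3.35% in young sections 1, 2 and 4. Padi6 gave 6.21% there, against 15.3, 13.9 and 16.99%. As a share of the UMIs of H1foo and Zp3 together, H1foo made up 33.3, 50, 68.4 and 73.1% in the oocyte-rich spots of aged sections 1 to 4 and 33.1, 38.8, 3.33 and 15.1% in those of young sections 1 to 4. The exact 95% binomial intervals, which cover counting error only, were 62.7 to 73.7% in aged section 3, 35.5 to 64.5% in aged section 2 and 52.2 to 88.4% in aged section 4, and 34.7 to 43.0% in young section 2, the highest of the young. Aged section 1 rested on 3 UMIs, and young section 3 on 1 H1foo UMI and 29 Zp3 UMIs in 2 spots. Outside the members, the rest of aged sections 1 to 4 held 6, 19, 83 and 25 UMIs of H1foo and 20, 27, 42 and 29 of Zp3. The rest of young sections 1 to 4 held 213, 94, 17 and 57 UMIs of H1foo and 271, 266, 27 and 268 of Zp3. There the shares of the ages overlapped. In aged section 3 the share was 70.9% in members scoring under 20, 66.2% in those from 20 to under 50 and 69.4% in those of 50 or more. In young section 1 it was 51.3, 31.3 and 30.0% over the same steps, in young section 2 it was 53.4, 33.7 and 36.9%, and in young section 4 16.5, 12.3 and 15.5%. Members of aged sections 2 and 4 scored at most 39.7 and 31.0. The part of score in the differences between sections was not tested. Both genes are in the score, so these shares carry no test. They compare sections, not the levels of the 2 genes.

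**Figure D2:**
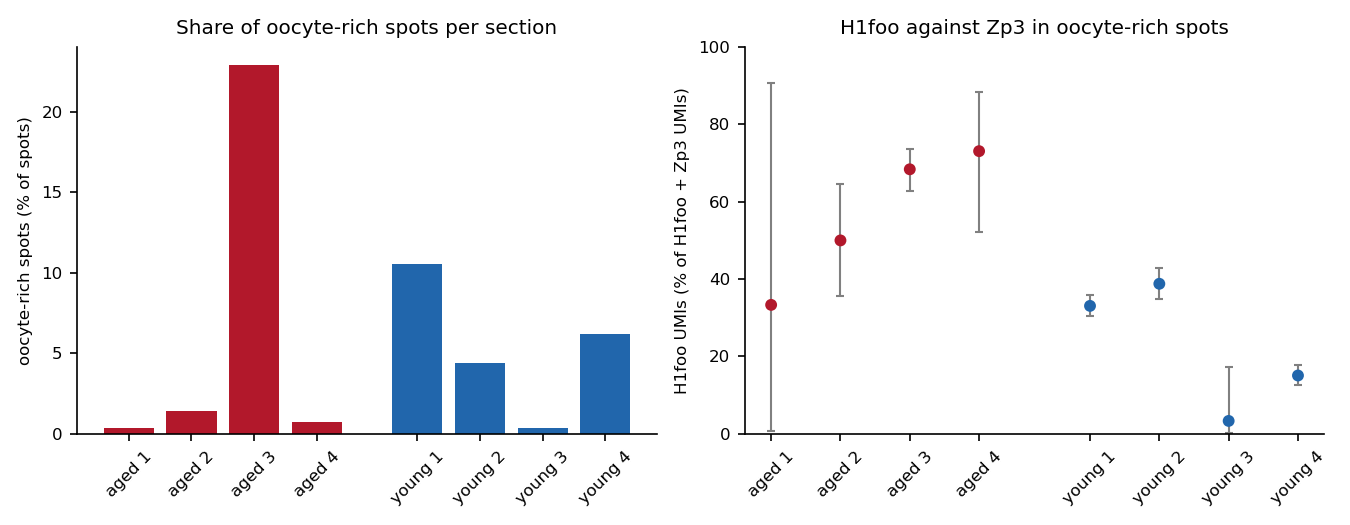
Left, the share of spots that were oocyte-rich (bars, % of spots with at least 1000 UMIs) in each aged and young section; right, H1foo UMIs as % of H1foo plus Zp3 UMIs in the oocyte-rich spots of each section, with exact 95% binomial intervals. Aged section 3 stands at 22.9% on the left. On the right the points of aged sections 2, 3 and 4 lie above those of the 4 young sections, while aged section 1, with 3 UMIs, does not. The interval of aged section 2 overlaps that of young section 2. Both genes are in the score that chose the spots, so this order carries no test. In the rest of the sections, which is not plotted, the ages overlapped. Within young sections 1 and 2 the share on the right also varied with the score of the spots.

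Gene tests used the 4 sections with at least 10 oocyte-rich spots, which were aged section 3 and young sections 1, 2 and 4 and held 192 of the 207. Counts were summed over the spots of a class within each section. The median member held 6057, 19621, 25204 and 14471 UMIs in these sections, and the median other spot 9242.5, 18674, 28362.5 and 20289.5. Mitochondrially encoded transcripts took 3.56, 1.42, 1.19 and 0.995% of the UMIs of members and 2.83, 1.94, 0.967 and 0.578% of those of the rest. Of the members, 17.5, 35.7, 43.8 and 19.1% lay at the rim of the tissue, against 35.4, 19.6, 24.4 and 15.4% of the rest. The part of depth, mitochondrial share or position in the results was not tested.

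Against the rest of the section, oocyte-rich spots carried more transcripts of the oocyte, granulosa and cell cycle lists and fewer of the corpus luteum, endothelial and macrophage lists. Of 11223 genes tested, 2271 (20.2%) passed an adjusted p of 0.05, 1143 higher (10.2%) and 1128 lower (10.1%), and the median over all genes was −0.00 on the log2 scale (edgeR quasi-likelihood test with Benjamini-Hochberg adjustment, section as a block). The count was 2631 without aged section 3, 1307 without young section 2 and 1499 without young section 1, and 515 when section was not a block. Of the 102 oocyte genes listed outside the score, 75 passed the filter on low counts, mostly through the members, so their counts describe the spots and support nothing. All adjusted p below are from edgeR's quasi-likelihood test with Benjamini-Hochberg adjustment. Errors of log2 fold changes are SE derived from that test, as the absolute fold change divided by the square root of its F statistic. They are not taken directly from the spread of the section values.

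All 7 tested oocyte transcription factors of 12 listed were higher, with a median log2 fold change of 4.02. Figla was at 10.6, 41.1, 47.6 and 40.9 CPM in oocyte-rich spots of aged section 3 and young sections 1, 2 and 4, against 1.30, 4.55, 2.75 and 1.64 CPM in the rest (log2 fold change 3.82 ± 0.29, SE, adjusted p = 8.10e-07). It lay lower in aged section 3 than in the 3 young sections, and higher in members than in the rest of every section. Nobox, a homeobox factor that oocytes need to leave the primordial stage, was at 17.03, 55.6, 59.2 and 48.3 CPM, against 6.08, 4.26, 2.41 and 1.46 CPM (4.02 ± 0.35). Pou5f1, the pluripotency factor OCT4 that growing oocytes express again, was at 27.7, 34.7, 37.1 and 24.8 CPM, against 3.91, 2.48, 0.963 and 1.40 CPM (4.11 ± 0.34). Lhx8, a LIM homeobox factor of early follicles, rose by 4.09 ± 0.39 and Taf4b, a subunit of the general transcription machinery, by 0.88 ± 0.22.

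Of 19 tested maternal-effect genes, whose products the embryo inherits, 18 were higher (median 3.83). Npm2, the nucleoplasmin of the oocyte nucleus, was at 145, 202, 180 and 154 CPM in members, against 15.2, 10.6, 6.41 and 5.95 CPM (4.35 ± 0.17, adjusted p = 7.30e-09). Nlrp5, which encodes MATER of the subcortical maternal complex, was at 76.6, 212, 117 and 162 CPM, against 10.9, 9.21, 4.43 and 5.41 CPM (4.46 ± 0.20). The members and the rest did not overlap for either gene, and Nlrp5 was lowest in the members of aged section 3. Uchl1, a deubiquitinase abundant in oocytes, was at 500.1, 753, 684 and 611 CPM, against 90.7, 103, 76.5 and 159 CPM (2.60 ± 0.17). Tle6, a further part of the maternal complex, rose by 2.01 ± 0.18, Dnmt1, which maintains DNA methylation, by 1.91 ± 0.11 and Trim28, a corepressor used in most cells, by 0.49 ± 0.11. Npm3 did not pass (0.37 ± 0.14, adjusted p = 0.0871).

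Meiosis and mRNA control genes were higher in 12 of 14 tested (median 4.08). Btg4, an adaptor that starts the clearance of maternal mRNA at maturation, was at 66.0, 46.0, 49.9 and 32.2 CPM in members, against 3.47, 3.66, 1.06 and 0.789 CPM (4.61 ± 0.32). Mos, the kinase that holds the egg in the second meiotic arrest, was at 38.3, 29.0, 30.2 and 22.3 CPM, against 2.60, 2.87, 0.723 and 0.850 CPM (4.25 ± 0.36). Both were highest in the members of aged section 3, and members exceeded the rest in every section. Cpeb1, which controls the poly(A) tails of stored mRNA, rose by 1.88 ± 0.19, Ybx2, which packages that mRNA, by 4.05 ± 0.28 and Aurkc, a meiotic kinase of the chromosomal passenger complex, by 4.44 ± 0.35, while Cnot7 stood at −0.17 ± 0.11 and Pde3a at 0.24 ± 0.30, neither past the threshold.

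Surface and secreted proteins were higher in 8 of 11 tested (median 3.99). Astl, the protease ovastacin that hardens the zona after fertilisation, was at 38.3, 96.8, 99.8 and 96.6 CPM in members, against 5.64, 5.54, 3.37 and 3.04 CPM (4.44 ± 0.23). Oosp1, an oocyte-secreted protein, was at 111, 45.2, 37.1 and 16.1 CPM, against 7.38, 4.55, 1.204 and 0.850 CPM (4.00 ± 0.28). In the members of aged section 3, Astl was the lowest and Oosp1 the highest of the 4 sections. Izumo1r, which encodes the sperm receptor JUNO, rose by 4.25 ± 0.31. The 3 that did not pass were Gja4 (0.34 ± 0.20, adjusted p = 0.277), which encodes connexin 37 of the gap junctions between oocyte and granulosa cells, Cd9 (0.26 ± 0.13, adjusted p = 0.197), the surface protein needed for fusion with sperm, and the growth factor gene Bmp6 (0.36 ± 0.21). Kit, the receptor for the ligand that granulosa cells make from Kitl, rose by 0.85 ± 0.18, and Kitl itself stood at −0.16 ± 0.19 (adjusted p = 0.624).

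Gene families known almost only from oocytes were higher in 24 of 24 tested (median 4.64), among them 11 Fbxw genes. Fbxw24 (chr9:109601116-109626057, GRCm38), an F-box protein gene, was at 93.6, 240.3, 266 and 185 CPM in members, against 9.98, 12.5, 5.01 and 3.40 CPM (4.94 ± 0.27). The Fbxw, Oog, Oas1, Nlrp4 and Nlrp9 genes have near-identical copies, so that their single values are uncertain. Among the 15 genes with the largest rise, Nlrp2, of the maternal complex, was at 10.6, 13.7, 8.13 and 9.91 CPM, against 0.434, 0.297, 0 and 0.182 CPM (5.85 ± 0.62). Ninj2, an adhesion protein gene, rose by 5.14 ± 0.35, Umodl1 by 4.89 ± 0.37, Trim61 by 4.88 ± 0.36 and Gtf2a1l, a germ cell form of the general factor TFIIA, by 4.84 ± 0.53. The others were the non-coding RNAs D030018L15Rik (5.46 ± 0.61) and Gm839 (5.20 ± 0.45), 6 Fbxw genes, and Gm13023 and C87977, which belong to a family of near-identical copies.

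**Figure D3:**
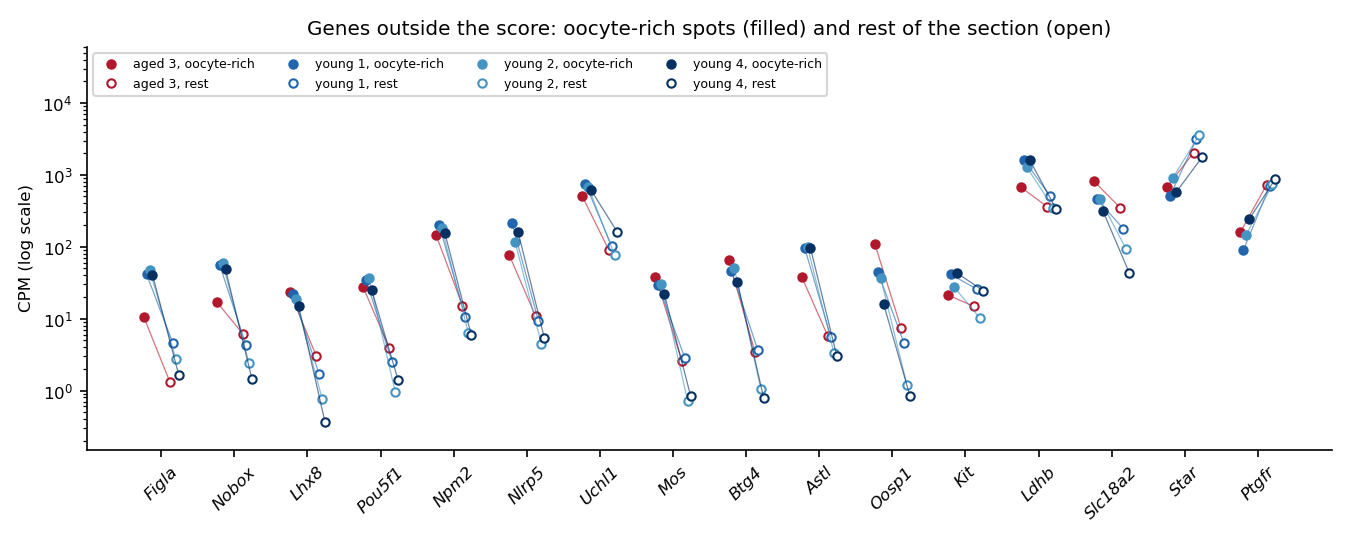
CPM (log scale) of 16 genes outside the score in oocyte-rich spots (filled points) and in the rest of the section (open points) of aged section 3 (red) and young sections 1, 2 and 4 (blues), with lines joining the values of a section. The 11 oocyte genes on the left, from Figla to Oosp1, are higher in the oocyte-rich spots of all 4 sections, and Star and Ptgfr on the right are lower in all 4.

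Granulosa genes were also higher, with a smaller median than the oocyte lists. Of 17 tested, 12 were higher and none lower (median 0.68, against −0.00 over all genes). Slc18a2, a vesicular monoamine transporter that marks granulosa of the mouse, was at 811, 455, 462 and 315 CPM in members of aged section 3 and young sections 1, 2 and 4, against 346, 178, 91.8 and 43.7 CPM in the rest (1.91 ± 0.21). Of the 8 genes of a granulosa score used below, a separate list, 4 of 6 tested were higher, Amh, Inha, Fshr (0.83 ± 0.20) and Hsd17b1, while Inhba stood at −0.55 ± 0.21 (adjusted p = 0.0893) and Inhbb at 0.36 ± 0.18. Amh, the anti-Müllerian hormone of small growing follicles, was at 25.5, 6.45, 10.4 and 11.1 CPM, against 8.25, 2.87, 0.867 and 1.03 CPM (2.33 ± 0.46, adjusted p = 0.00245). Members exceeded the rest in every section for Slc18a2 and Amh. The summed granulosa score was 61.7, 30.4, 34.2 and 26.7 per 10000 UMIs in members of these sections. At 1 array step from a member it was 50.7, 30.4, 28.4 and 27.7, and at 3 or more steps 27.0, 19.1, 12.3 and 17.8. Adjoining spots thus stood level with members or near them in young sections 1 and 4. Esr2, an oestrogen receptor, rose by 1.08 ± 0.16 and Foxl2, which maintains granulosa identity, by 0.59 ± 0.12. Amhr2, the receptor of anti-Müllerian hormone, rose by 0.86 ± 0.14 and Bex4 by 0.61 ± 0.20, whereas Gja1, which encodes connexin 43 of granulosa gap junctions, stood at 0.13 ± 0.13 (adjusted p = 0.552). Of 6 tested cumulus genes only Slc38a3, a transporter that supplies amino acids to the oocyte, passed (0.61 ± 0.17).

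Cell cycle genes were higher in 22 of 23 tested (median 1.01). Birc5, which encodes survivin of the chromosomal passenger complex, was at 147, 194, 211 and 92.9 CPM in members, against 60.3, 55.2, 31.4 and 15.4 CPM (2.12 ± 0.18, adjusted p = 1.99e-06). Pcna, the sliding clamp of DNA replication, rose by 0.48 ± 0.15, Ccnd2, the cyclin of granulosa division, by 0.76 ± 0.12, Mcm6, of the replicative helicase, by 1.00 ± 0.12 and Mki67, a marker of dividing cells, by 1.00 ± 0.14. Ccnd1 stood at −0.00 ± 0.31. Of 10 spindle checkpoint and cohesin genes 5 rose, with Bub1b at 1.62 ± 0.22, and the cohesin subunits Smc3 and Rad21 stood at 0.37 ± 0.15 and 0.25 ± 0.13, below the threshold.

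Genes of the corpus luteum, the progesterone-making gland that forms after ovulation, were lower in 11 of 11 tested (median −1.58). Ptgfr, the receptor through which prostaglandin F2α ends the life of that gland, was at 160, 88.7, 146 and 240.3 CPM in members, against 728, 694, 739 and 884 CPM (−2.35 ± 0.17, adjusted p = 5.56e-07). Star, which brings cholesterol into mitochondria for steroid synthesis, was at 687, 513, 917 and 571 CPM, against 2022, 3145, 3613 and 1772 CPM (−1.96 ± 0.18). No member value reached the lowest value of the rest for either gene. Akr1c18, which inactivates progesterone, fell by 2.12 on the log2 scale (SE 0.24). Cholesterol synthesis genes were lower in 15 of 20 (median −0.97), with Fdps, which makes farnesyl diphosphate, at −1.07 ± 0.12, Hmgcs1, the synthase at the head of the pathway, at −1.14 ± 0.13 and Dhcr7, a late enzyme, at −1.36 ± 0.14. Among the 10 genes with the largest fall outside these lists were Hsd11b1, which regenerates active glucocorticoid, at 0, 0.806, 3.48 and 2.48 CPM against 6.95, 17.6, 27.1 and 10.7 CPM (−3.28 ± 0.42), Runx3 (−2.60 ± 0.45) and Bhlhe40, a transcriptional repressor (−2.30 ± 0.20). The rest were 2010003K11Rik, Kcnj16, Saa2, Nmrk1, Clic3 and Megf10, at −3.12 to −2.32.

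Other cell types differed in parts. Of 9 theca genes 4 were lower, the steroidogenic genes Cyp11a1 (−1.48 ± 0.17), Fdx1 and Hsd3b1 and the receptor gene Lhcgr, and 2 were higher, the hedgehog targets Gli1 (0.92 ± 0.19) and Ptch1 (0.75 ± 0.17), each in 3 of 4 sections. Theca answers hedgehog ligands made by granulosa cells, of which Ihh rose by 1.07 ± 0.16. Endothelial genes were lower in 7 of 11 (median −0.72, Pecam1 −1.25 ± 0.17), macrophage genes in 7 of 11 (median −0.92, Cd74 −0.85 ± 0.14, C1qc −1.17 ± 0.13) and smooth muscle and pericyte genes in 4 of 11 (median −0.25, Notch3 −1.21 ± 0.25). Stromal genes stood near no difference, with 1 higher, 3 lower and 9 not past the threshold (median 0.01), Col1a2 being higher (0.42 ± 0.11) and Ccl21a lower (−0.59 ± 0.14). Surface epithelium genes were higher in 3 of 8 (median 0.71): Upk3b was at 14.9, 90.3, 33.7 and 70.6 CPM in members, against 33.4, 12.9, 12.3 and 31.2 CPM, higher in the 3 young sections and lower in aged section 3, which also had fewer members than other spots at the rim. Without aged section 3, 4 of 11 surface epithelium genes were higher (median 1.25) and 9 of 11 macrophage genes lower. Of 4 B and plasma cell genes and 2 oviduct genes none passed, 1 of 2 erythrocyte and 1 of 2 adipocyte genes was lower, and no T and NK cell gene passed the filter.

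Among 14 glycolysis genes only Ldhb passed, the lactate dehydrogenase subunit that predominates in oocytes, which take up pyruvate and lactate in place of glucose. It was at 673, 1607, 1274 and 1599 CPM in members, against 358, 506, 351 and 336 CPM in the rest (1.68 ± 0.16, adjusted p = 6.50e-06). Without aged section 3, 1 of the 14 glycolysis genes was higher and 5 were lower. Of 16 genes of the SMAD and BMP response, which GDF9 and BMP15 engage, 3 rose, namely Fst, Bmpr1b (0.64 ± 0.17) and Smad3 (0.57 ± 0.15), and 3 fell, namely Id1, Id2 and Tgfbr1 (−0.48 to −0.61). None of 11 mitochondrially encoded genes passed (median 0.23).

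**Figure D4:**
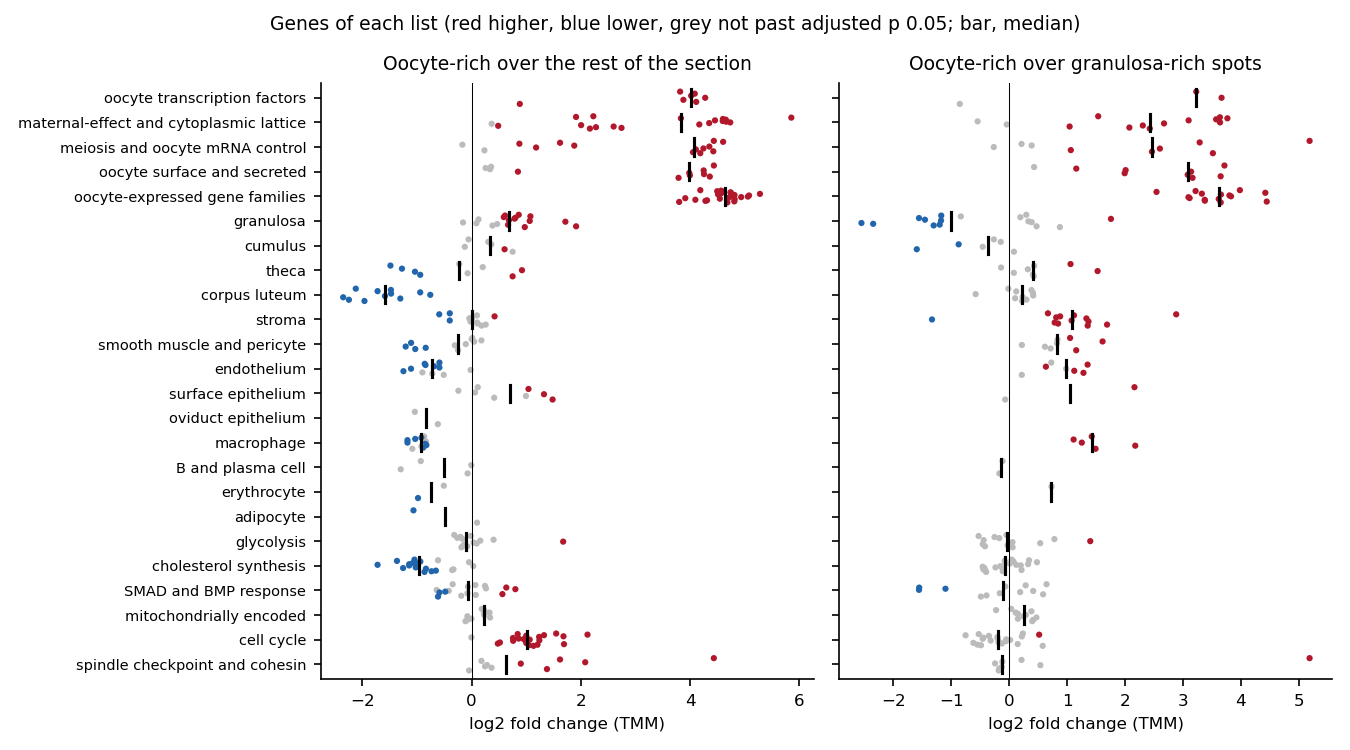
Log2 fold changes (horizontal axis, TMM scaling) of the tested genes of each list, for oocyte-rich spots over the rest of the section (left) and over granulosa-rich spots (right). Red points are higher and blue points lower at an adjusted p under 0.05, grey points did not pass, and black bars are medians: the 5 oocyte lists have medians of 3.83 to 4.64 on the left and 2.43 to 3.62 on the right, where stromal and macrophage genes are also higher and granulosa genes lower. The spots were chosen by oocyte or granulosa genes, so the oocyte and granulosa lists describe that choice.

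Graded by score, the lists changed in steps and not at the threshold. Over spots scoring under 2, 2 to under 5, 5 to the threshold, the threshold to under 20, 20 to under 50, and 50 or more, oocyte genes outside the score summed to 822, 1128, 1678, 2605, 4087 and 11377 CPM in the 4 sections pooled. Granulosa genes summed to 1778, 2340, 3001, 3551, 3477 and 3375 CPM in the pool. Above the threshold the sections did not move together: over the last 3 groups the granulosa sum was 5298, 6737 and 4403 CPM in aged section 3, 3864, 2656 and 3674 CPM in young section 1, 3368, 3802 and 2752 CPM in young section 2, and 2252, 1803 and 3099 CPM in young section 4. Corpus luteum genes summed to 15182, 8789, 5213, 4099, 3530 and 1980.0 CPM. In the 6 spots of aged section 3 that scored 50 or more, the oocyte genes summed to 22612 CPM over a median of 1659.5 UMIs a spot. In young sections 1, 2 and 4 the same class summed to 9634, 13554 and 11449 CPM over medians of 21129, 24298.5 and 14684.5 UMIs, so the depth behind these values differs.

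**Figure D5:**
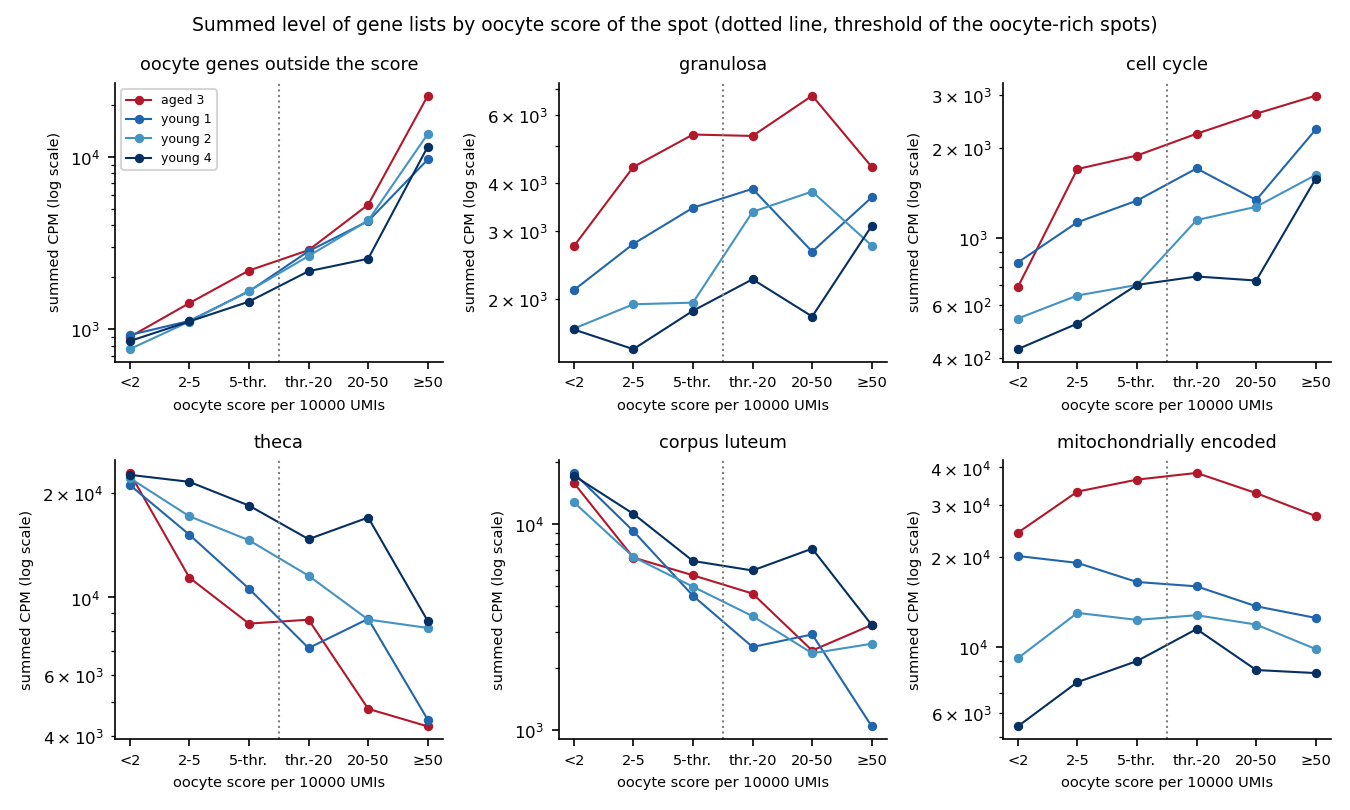
Summed CPM (log scale) of 6 gene lists over spots grouped by oocyte score per 10000 UMIs (horizontal axis, with thr. for the threshold of the oocyte-rich spots, dotted line), in aged section 3 (red) and young sections 1, 2 and 4 (blues). Oocyte genes outside the score climb in all 4 sections, corpus luteum genes fall from the first to the last group in all 4, and mitochondrially encoded genes are higher in aged section 3 in every group.

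A second comparison set the oocyte-rich spots against granulosa-rich spots, the top 5% of the other spots by 8 granulosa genes (Inha, Inhba, Inhbb, Amh, Fshr, Cyp19a1, Hsd17b1 and Nppc), also 207 in number. Of 8349 genes tested 720 passed (8.62%), 431 higher (5.16%) and 289 lower (3.46%). With sections left out the count was 293 without young section 2, 422 without young section 4, 468 without young section 1 and 952 without aged section 3, and DESeq2 called 289. The oocyte lists were higher in 2 of 3, 11 of 13, 6 of 9, 8 of 9 and 15 of 15 tested genes, with medians of 3.23 (transcription factors), 2.43 (maternal-effect), 2.47 (meiosis and mRNA control), 3.08 (surface and secreted) and 3.62 (families), against −0.01 over all genes. Granulosa-rich spots were drawn only from spots below the threshold of the oocyte score. These counts therefore describe the spots and support nothing. Pkd2l2, a polycystin-like channel gene that overlaps Fam13b on the other strand, was at 80.9, 75.8, 76.6 and 75.6 CPM in oocyte-rich spots, against 0, 1.95, 0 and 0 CPM in granulosa-rich spots, the last resting on 1 UMI. Its level was even between the oocyte-rich spots of aged section 3 and the young sections. Dppa5a, an RNA-binding protein gene of early embryos and germ cells, was at 87.3, 176, 87.1 and 199 CPM, against 9.10, 11.7, 1.31 and 0 CPM (4.60 ± 0.37). Gtsf1, a factor of the piRNA pathway, rose by 4.17 ± 0.43 and Bcl2l10, a BCL2 relative of the oocyte, by 3.98 ± 0.32. The others of the 15 largest were Khdc1a, Khdc1b, Oas1e and C87977, which have near-identical copies, Gng3, Aurkc, D6Ertd527e and E330034G19Rik, and the RNAs 2010001K21Rik, Arhgap20os and C86187.

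The surface and secreted list held 8 of 9 genes that were higher than in granulosa-rich spots, and Bmp6 did not pass (0.43 ± 0.29). Gja4, which had not passed against the rest of the section, was at 49.0, 28.2, 59.2 and 44.6 CPM in oocyte-rich spots, against 6.82, 17.6, 9.19 and 8.64 CPM in granulosa-rich spots (2.01 ± 0.34, adjusted p = 0.00129). Kit rose by 2.00 ± 0.44 and Cd9, which had not passed against the rest either, by 1.16 ± 0.24. Of the glycolysis list, Ldhb rose by 1.40 ± 0.18.

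Of 16 granulosa genes outside the granulosa score, 8 were lower in oocyte-rich spots, 1 was higher and 7 did not pass (median −1.0005). The granulosa-rich spots had been chosen by other granulosa genes, so that lower values of this list describe that choice. Gja1 averaged 803 ± 421 CPM in oocyte-rich and 1952 ± 139 CPM in granulosa-rich spots (SD, n = 4 sections; −1.45 ± 0.20). Fst, which encodes the activin antagonist follistatin, stood at −1.55 ± 0.28 and the BMP receptor gene Bmpr1b at −1.55 ± 0.26. Gatm, of creatine synthesis, was the 1 that rose (1.76 ± 0.40). The 10 largest falls were Itga2, an integrin chain gene (−2.98 ± 0.37), Mro, 1110032F04Rik, Nap1l5, Ddah1, Masp1, Mug2, Gm45650, Car14 and Tox2, the last at −1.83 ± 0.24. Nap1l5 lies within Herc3 and Car14 overlaps Aph1a, so that their reads may mix.

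Lists of some other cell types had more genes higher than lower against granulosa-rich spots, which had been chosen for their granulosa genes: stromal genes were higher in 12 of 13 (median 1.08), macrophage genes in 5 of 5 (1.43), endothelial genes in 4 of 7 (0.99) and smooth muscle and pericyte genes in 3 of 8 (0.83). Ccl21a, a chemokine gene of the stromal list, was at 36.2, 239, 130 and 518 CPM in oocyte-rich spots, against 29.6, 23.4, 19.7 and 32.4 CPM in granulosa-rich spots (2.89 ± 0.33). Its excess was small in aged section 3 and large in the young sections. The collagen gene Col1a2 rose by 0.88 ± 0.14, Cd74, of antigen presentation, by 2.18 ± 0.30, Pdgfra, a fibroblast receptor gene, by 1.69 ± 0.23, and the growth factor gene Igf1 fell by 1.33 on the log2 scale (SE 0.27). Of 22 cell cycle genes 1 passed, Birc5, which was higher (0.52 ± 0.15; median −0.19), and none of 20 cholesterol genes and of 10 corpus luteum genes passed.

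Within oocyte-rich spots, the age comparison had 1 aged section (aged 3) against 3 young sections (1, 2 and 4), so that the spread of aged sections was taken from the young, and age cannot be told apart from that section or from an exchanged label. Of 10579 genes 77 passed (0.728%), 51 higher (0.482%) and 26 lower (0.246%), with 265, 330 and 776 once young section 1, 2 or 4 was left out. Mitochondrially encoded genes were higher in 7 of 12 tested (median 2.00, against −0.02 over all genes), and 6 of them were among the 10 genes with the smallest p. mt-Nd2 was at 2175 CPM in oocyte-rich spots of aged section 3, against 459.7, 290.2 and 307 CPM in young sections 1, 2 and 4 (2.61 ± 0.28, adjusted p = 0.00153). The other aged sections, too small for the test, had 2601, 1582 and 186 CPM in sections 1, 2 and 4, on 1, 9 and 3 spots, and young section 3 had 232 CPM on 2. In the rest of the section mt-Nd2 was at 1229, 482, 1674 and 537 CPM in aged and 885, 321, 508 and 227 CPM in young sections 1 to 4, so that the ages overlapped there. The difference between the age differences did not pass (0.84 ± 0.37, adjusted p = 0.374). UMIs per member spot were also lower in aged section 3, and their part was not tested.

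Malat1, a nuclear non-coding RNA, was at 813 CPM in oocyte-rich spots of aged section 3, against 139.5, 147 and 113 CPM in the young sections (2.59 ± 0.25). Aged sections 1, 2 and 4 had 946, 1254 and 0 CPM, the last over 48340 UMIs. In the rest of the section Malat1 was at 917, 1023, 518 and 302 CPM in aged and 588, 201, 547 and 180 CPM in young sections 1 to 4, with overlap, and the difference between the age differences did not pass (2.00 ± 0.44, adjusted p = 0.117). Tex15, known for silencing of transposons and recombination in male germ cells, was at 264 CPM against 41.1, 49.9 and 27.3 CPM (2.71 ± 0.31), and at 0, 89.6 and 186 CPM in aged sections 1, 2 and 4. Granulosa-rich spots of aged section 3 held Tex15 at 179.7 CPM and those of young sections 1, 2 and 4 at 68.4, 118 and 106 CPM. Mycl, a MYC family gene, was at 296 CPM, against 54.0, 81.3 and 65.7 CPM (2.13 ± 0.28), and Aqp8, a water channel gene, at 66.0 CPM, against 2.42, 1.16 and 0 CPM. With the 9 spots of aged section 2 also admitted, 13 genes passed, among them Malat1, the 6 mitochondrial genes named by rank (mt-Nd1, mt-Nd2, mt-Nd3, mt-Nd4, mt-Co2 and mt-Atp6) and Tex15, while Mycl did not (1.66, adjusted p = 0.136) and Aqp8 was below the filter. With the top 10% of spots as members 16 genes passed, and Mycl did not (adjusted p = 0.144).

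Of 83 oocyte genes tested for age over the 5 lists, 2 passed, beside 0.728% of all genes: Taf4b (1.93 ± 0.39) and Rfpl4, an oocyte RING finger gene (1.98 ± 0.39), were higher in aged section 3. Figla stood at −2.02 ± 0.51 (adjusted p = 0.0950), Astl at −1.36 ± 0.34, Oosp1 at 1.69 ± 0.41 and Ldhb at −1.16 ± 0.29, none past the threshold. Taf4b was also at 63.7 CPM in granulosa-rich spots of aged section 3, against 13.7, 36.8 and 54.0 CPM in those of young sections 1, 2 and 4. In the stromal and smooth muscle lists, Igf1 was higher (2.05 ± 0.28) and the stromal gene Mfap4 and the smooth muscle genes Tagln and Myh11 were lower (−1.67 to −2.01). All 24 cell cycle genes missed the threshold, with a median of 0.91.

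The age difference in oocyte-rich spots differed from that in the rest of the section for 19 of 11223 genes (0.169%), 8 higher (0.0713%) and 11 lower (0.098%), over the same 4 sections, and for 194, 63 and 282 genes without young section 1, 2 or 4. Igfbp5, which binds insulin-like growth factors, was at 53.2 CPM in oocyte-rich spots of aged section 3 and at 293, 179 and 291 CPM in those of young sections 1, 2 and 4, while the rest stood at 135 CPM in aged section 3 and at 89.1, 61.6 and 104 CPM in the young (difference of log2 fold changes −2.71 ± 0.27, adjusted p = 0.00550). Igf1 went the other way, at 370.3 CPM against 96.8, 99.8 and 66.9 CPM in oocyte-rich spots and at 169.7 CPM against 149.7, 133 and 70.4 CPM in the rest (1.75 ± 0.24). Tns3, a focal adhesion gene, Tle2, a corepressor gene, and Ier2, an immediate early gene, were at 46.8, 46.8 and 70.2 CPM in oocyte-rich spots of aged section 3, against 430, 283 and 365 CPM in the rest of that section. Once aged section 2 was admitted, edgeR called 0 genes, with 982 at an unadjusted p under 0.05. The share of higher genes among the calls was 42.1% with TMM, 54.2% with RLE size factors and 18.6% with library size alone, which moved the median over all genes to −0.22.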

How the data were processed

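The authors deposited UMI counts per gene and spot (raw whole numbers, 32285 genes) with spot positions, made with Space Ranger 1.2.1 per the submitters' processing notes. Of 4263 spots marked as tissue, 72 had no count column and 4191 were used, 57 of them under 1000 UMIs. The 2 sections of a capture area were parted where spots left the widest gap (searched in the middle 60% of the area), and ages followed the sides in the labels, aged sections at the top in area 1 and on the right in areas 2 to 4. The members and gene lists were chosen with earlier results of these data known. Counts were summed per section and spot class for sections with at least 10 oocyte-rich spots, and the genes of a score were left out of its tests. Tests used edgeR 4.0.16 with limma 3.58.1 in R 4.3.3 (filterByExpr, TMM, quasi-likelihood, Benjamini-Hochberg at 0.05), and DESeq2 1.42.0 was an alternative. Exact permutation over sections was run in Python 3.11.15, and binomial intervals came from scipy 1.17.1. Section was a block wherever both sums of a section entered a test, since they come from 1 animal. With that block, p-values rest on how the difference between spot classes varied over sections, each from 1 animal. In the age comparisons by edgeR, with 1 aged section, the spread between sections came from the young sections alone. The permutation test compares the shares of whole sections. On simulated counts with 200 genes changed by 2 on the log2 scale, 99.5% were recovered against the rest of the section, 56.5% in the age comparison within oocyte-rich spots and 33% for the difference of age differences. Unchanged genes called numbered 10, 3 and 6. The simulation had a fixed spread for all genes and no difference between sections, and it changed only well-covered genes. Recovery in the data may therefore be lower. Named genes were the 15 largest rises and 10 largest falls called in the same direction in every section (mean at least 10 CPM), for age the 10 smallest p, and the most abundant members of each list. Others, such as Amh, Fshr, Gli1, Upk3b, Gatm, Cd9 and Gja4, were named after their values were seen. Levels are not per length and are not compared between genes. Whether counting used strand is not given in the sources used here. Alternatives changed the UMI minimum, the share of spots, the sections, the score genes, the scaling and the filter. One gene result is not reported here.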

Additional observations from a re-analysis of the deposited data

Results flagged for a closer look

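Aged section 3 stood apart among the 4 aged sections, with 22.9% of its spots oocyte-rich. Within oocyte-rich spots, 7 named genes had 1 section far from the other 3: Trim61 at 85.1 CPM, Car14 at 278.8 CPM and Tox2 at 49.0 CPM in aged section 3, Khdc1a at 41.9 CPM in young section 1, Gtf2a1l at 24.4 CPM and Saa2 at 27.9 CPM in young section 2, and Megf10 at 13.6 CPM in young section 4. These are 8 of 54 groups looked at, of which chance alone marks about 5%.

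The age difference (aged section 3 against young sections 1, 2 and 4) in oocyte-rich spots differed from that in the rest of the section for 10 named genes, by the interaction test. On the log2 scale the difference of differences was −2.71 for Igfbp5, −2.10 for Ier2, −2.42 for Tns3, −2.11 for Tle2 and −2.14 for Itga6. It was 1.75 for Igf1, 1.65 for Thbs4, 1.34 for Ucp2, 1.17 for Txn1 and 1.18 for Psma2.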

How the results depend on the processing

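The difference in the share of oocyte-rich spots, aged minus young, was −0.0588 points with the top 10% of spots, −1.17 with the top 5% within each area and −6.20 without area 3, and ran from −4.54 to 2.98 with 1 section left out. A replicate block over capture areas (sign-flip within areas) gave 0.976 (exact p = 1). The cause of the reversals was not tested. Against the rest of the section, leaving out 1 section gave 1307 to 2631 genes, and no replicate block 515. Against granulosa-rich spots the counts were 293 to 952 with 1 section left out, 283 with no replicate block, 1288 with no filter on low counts, 443 with sections of at least 5 oocyte-rich spots and 289 with DESeq2. Age within oocyte-rich spots gave 265 to 776 with 1 young section left out, 509 with no filter, 13 with sections of at least 5 spots and 16 with the top 10%. The difference of age differences gave 63 to 282, 258, 0 (edgeR, 982 at an unadjusted p under 0.05) and 30 under the same settings, 43 with library size alone and 55 with a minimum of 2000 UMIs. Of the values of single named genes, 969 kept direction and call, 28 lost the call and 0 reversed. These genes had been picked for large changes or small p in the main setting, so stability was favoured by the choice. Settings in which a gene was not tested are not counted. Not run were the top 3% against granulosa-rich spots, the age comparisons without aged section 3, since no aged section would remain, and the age comparison with a block of capture areas, since none of the 4 sections tested share an area. The age comparison rests on 1 aged section, whose members hold few UMIs.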
